A study of Mus musculus with 4 samples.

Results

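Lrrk2, which encodes leucine-rich repeat kinase 2, was followed together with its paralog Lrrk1 and 4 Rab GTPase genes whose products it phosphorylates (Rab8a, Rab10, Rab12 and Rab29) in sorted striatal output neurons of a Huntington's disease mouse model. These 6 genes, of 37620 gene identifiers measured, were taken by name, and the set was chosen by its measured values in that the level of Lrrk2 stood lower in mutant than in wild-type cells of both types. The values of the 6 genes in mutant against wild-type cells are therefore a description and carry no test, and tests are given for the difference between cell types and for genes outside the set. Of the 6, Lrrk2, Rab8a, Rab10 and Rab12 passed the expression filter (at least 1 CPM, a count scaled to library size, in 2 or more of the 4 libraries), and Lrrk1 and Rab29 did not.

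There were 4 groups with 1 RNA-seq library each, namely D2 BACHD, D2 WT, D1 BACHD and D1 WT. BACHD mice (genotype label Tg(Htt*97Q)IXwy) are hemizygous for a bacterial artificial chromosome (BAC) with full-length human mutant huntingtin, which encodes 97 glutamines and is driven by the huntingtin regulatory sequence that the BAC carries, and WT littermates lack it. Animals of all 4 groups carried a further BAC in which the Drd2 gene (D2 cells, indirect-pathway medium spiny neurons) or the Drd1 gene (D1 cells, direct-pathway medium spiny neurons) drives EGFP, and cells were sorted for that signal. The mice were FVB/NJ males of 5 to 6 months, and each library pooled the sorted cells of 4 animals with 150000 cells each. D2 and D1 cells thus differ in reporter line as well as in cell type, and no group had a replicate pool. The libraries held 41325647 to 44523622 estimated counts. Drd2 stood at 2036 and 2098 CPM in D2 BACHD and D2 WT, against 20.4 and 20.2 CPM in D1 BACHD and D1 WT. Drd1 stood at 13.4 and 18.5 CPM in D2 BACHD and D2 WT, against 818 and 915 CPM in D1 BACHD and D1 WT.

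LRRK2 is a large protein with a GTPase domain of the Roco type and a kinase domain, and mutations that raise its kinase activity cause an inherited form of Parkinson's disease in humans. It phosphorylates a conserved threonine or serine in the switch II region of several Rab GTPases, small proteins that steer vesicles between membranes, and this changes which partners the Rabs bind. Medium spiny neurons of the striatum are known for abundant Lrrk2 transcript.

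The coding stretch around that target residue is shown for the 4 Rab genes because it holds the residue that Lrrk2 phosphorylates and because it shows how far short reads could tell the paralogs apart. The 54-base stretches come from GENCODE M21 transcripts (GRCm38), with the codon that aligns with the target threonine of Rab8a in capitals.
Rab8a: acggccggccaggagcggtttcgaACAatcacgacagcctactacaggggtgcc
Rab10: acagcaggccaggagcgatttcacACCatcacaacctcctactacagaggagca
Rab12: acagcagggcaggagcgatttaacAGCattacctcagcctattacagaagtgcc
Rab29: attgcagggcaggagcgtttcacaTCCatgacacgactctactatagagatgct
They lie at chr8:72171244-72171297 (plus strand), chr12:3256948-3257001 (minus strand), chr17:66500391-66500444 (minus strand) and, across an intron, chr1:131869998-131870726 (plus strand). The capitals encode threonine in Rab8a and Rab10 and serine in Rab12 and Rab29. In Rab29 the codon just before the capitals, aca, encodes a further threonine, which is the residue described as the site in human RAB29. Base by base, Rab8a and Rab10 were the same at 42 of 54 positions, Rab10 and Rab12 likewise at 42, and Rab8a and Rab29 at 34. Even in this conserved stretch no 50-base word was shared between the 4 genes. Over the longest coding transcript, 0 of 8226 such words of Lrrk2, 0 of 2020 of Rab12 and 0 of 1177 of Rab29 occurred in a transcript of another gene. Rab8a shared 1.07% of its words with transcripts of 290 other genes, and Rab10 shared 2.54% with Rab10os, an antisense gene on the opposite strand. Rab10os stood at 7.89 and 8.64 CPM in D2 BACHD and D2 WT, against 6.74 and 8.65 CPM in D1 BACHD and D1 WT. The use of strand in counting is not given, so the split of reads between Rab10 and Rab10os is uncertain.

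Lrrk2 (ENSMUSG00000036273, chr15:91673175-91816120, plus strand, GRCm38) stood lower in the BACHD than in the WT library of each cell type. Its level was 105 CPM in D2 BACHD and 172 CPM in D2 WT, from 4482 and 7449 estimated counts. In D1 cells it was 111 CPM in BACHD and 164 CPM in WT, from 4673 and 6985 counts. Both BACHD libraries lay below both WT libraries, and within a genotype the cell types lay close together. The BACHD level was 61.0% of WT in D2 cells (log2 ratio -0.71, 95% counting interval -0.77 to -0.66) and 67.8% of WT in D1 cells (log2 ratio -0.56, interval -0.62 to -0.51). These intervals cover counting error only and not the spread between pools. A ratio of 2 or more either way with an interval that excluded 1 was reached by none of the 6 genes in D2 or D1 cells, against 0.59% of all 13400 tested genes in D2 and 1.31% in D1 cells. At a ratio of 1.5, Lrrk2 passed in D2 cells and stood just short of it in D1 cells (1.48-fold lower), where 1.15% of tested genes passed in that direction in D2 and 1.17% in D1 cells. Of all 13400 tested genes, 112 had a lower BACHD-to-WT ratio than Lrrk2 in D2 and 189 in D1 cells. Among the 2321 genes that averaged 100 CPM or more, a level chosen after the values were seen, these numbers were 5 and 3. The set was chosen because Lrrk2 was low on this ratio, so these ranks are a description and no test. In pools of sorted cells, fewer cells that express a gene and less RNA per cell cannot be told apart.

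**Figure D1:**
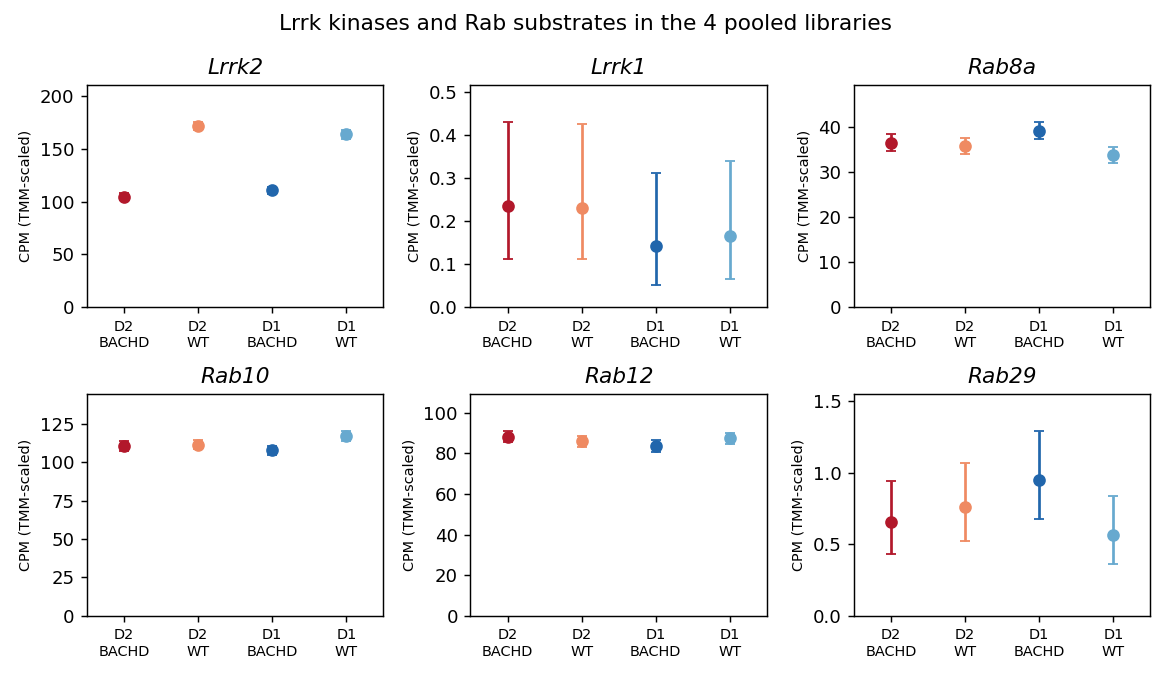
Level of each gene (CPM, linear axis from 0) in the 4 libraries, 1 point per pooled library, with exact Poisson 95% intervals of the count. Lrrk2 stands at 105 and 111 CPM in the BACHD libraries and at 172 and 164 CPM in the WT libraries, while Rab10 and Rab12 keep within 108 to 117 and 83.7 to 88.3 CPM.

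**Figure D2:**
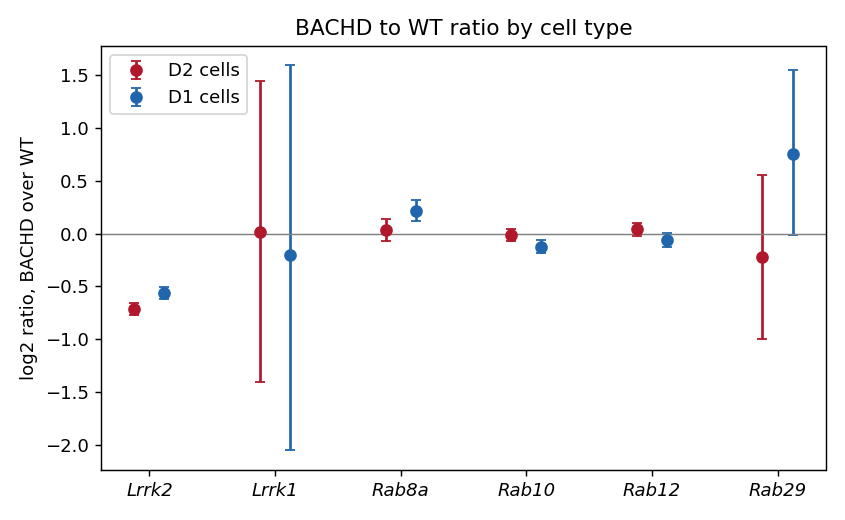
Log2 ratio of BACHD to WT in D2 and D1 cells for the 6 genes, with exact 95% counting intervals (no replicate error). Lrrk2 lies at -0.71 and -0.56, the 3 abundant Rab genes lie between -0.12 and 0.22, and the intervals of the scarce Lrrk1 and Rab29 are wide.

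Markers of other cell types also differed between the same libraries. The 6 markers of cortical glutamatergic neurons summed to 5.25 and 3.04 CPM in D2 BACHD and D2 WT, against 137 and 27.6 CPM in D1 BACHD and D1 WT. They were higher in BACHD for 4 of 6 genes in D2 and 6 of 6 in D1 cells. The 9 oligodendrocyte markers were all higher in BACHD in both cell types (404 and 339 CPM in D2, 365 and 315 CPM in D1 cells, BACHD and WT). Microglia markers were higher for 6 of 8 genes in D2 (63.3 and 55.7 CPM) and 8 of 8 in D1 cells (50.2 and 45.9 CPM). Astrocyte markers summed to 79.7 and 79.1 CPM in D2 (4 of 7 higher) and to 73.3 and 55.2 CPM in D1 cells (6 of 7 higher). The 8 genes shared by both kinds of medium spiny neuron were all lower in BACHD in D2 cells (12690 and 14030 CPM). In D1 cells 7 of 8 were lower (11470 and 12450 CPM). The log2 ratio of the sums was -0.14 in D2 and -0.12 in D1 cells. Markers of each neuron type were less uniform. D1 markers were higher in BACHD for 4 of 7 genes in D1 cells (log2 ratio of the sums -0.06). D2 markers were higher for 2 of 6 in D2 cells (-0.08). Interneuron markers summed to 7.75 and 7.10 CPM in D2 (5 of 7 higher, Vip at 0 counts in both libraries) and to 28.2 and 22.2 CPM in D1 cells (6 of 7 higher). Endothelial markers summed to 8.45 and 11.2 CPM in D2 (0 of 5 higher) and to 10.2 and 9.96 CPM in D1 cells (3 of 5 higher). The part of these shifts in the Lrrk2 values was not tested. Cortical glutamatergic and interneuron markers summed higher in both D1 than in both D2 libraries. Their part in the D2 minus D1 differences given below was not tested.

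The deposited FPKM values, which are scaled to gene length and library size, placed Lrrk2 at 44.1 FPKM (BACHD) and 70.1 FPKM (WT) in D2 cells and at 46.8 FPKM (BACHD) and 66.3 FPKM (WT) in D1 cells. Counts and FPKM together give the length that the authors' processing assigned to a gene. For Lrrk2 it was 2316 and 2386 bases in D2 BACHD and D2 WT, and 2418 and 2527 bases in D1 BACHD and D1 WT. The annotated coding transcript has 8275 bases and 51 exons, so the implied length was 0.29 of it, against a median of 0.92 over 12136 tested genes with a coding transcript, and 2.05% of those genes had a lower share. Nearest in length among the 6 annotated Lrrk2 transcripts is a processed transcript of 2203 bases and 12 exons at the 3′ end of the gene. Its first exon (chr15:91780378-91780453, plus strand, GRCm38, GENCODE M21) is shown whole because it is the part of that transcript that the coding transcript does not hold, while the other 2127 bases are all in the coding transcript.
Lrrk2 short transcript, exon 1: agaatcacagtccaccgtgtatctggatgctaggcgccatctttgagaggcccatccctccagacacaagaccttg
Which Lrrk2 transcripts the authors' annotation held, and how reads were divided among them, is not given in the sources used here, so the gene total cannot be split into the kinase-coding transcript and shorter ones. The implied length was shorter in BACHD than in WT in both cell types, and the log2 ratio of FPKM plus 0.1 was accordingly nearer 0 than that of counts, at -0.67 in D2 and -0.50 in D1 cells.

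**Figure D3:**
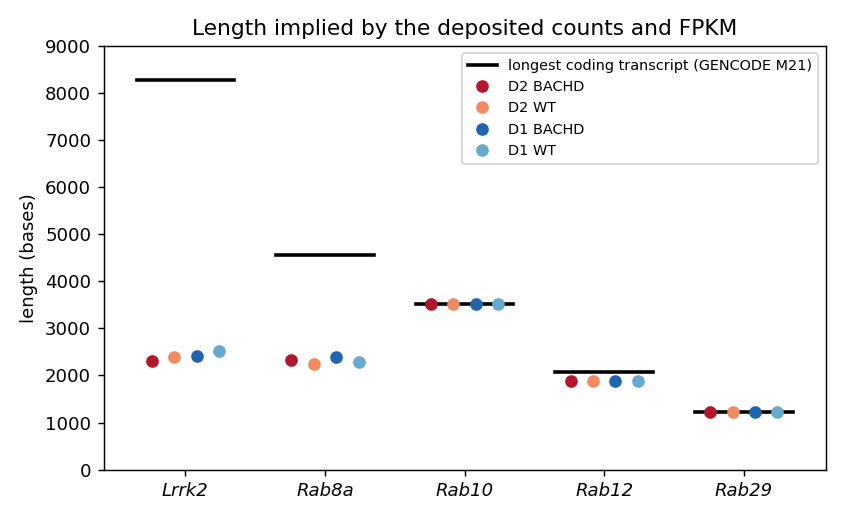
Length in bases that the deposited counts and FPKM imply for Lrrk2 and the 4 Rab genes in each library (points), with the longest coding transcript of GENCODE M21 (bars). The Lrrk2 points, at 2316 to 2527 bases, lie far below the bar at 8275 bases, and those of Rab10, Rab12 and Rab29 lie at or near theirs.

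The order of the genes by level per length depends on that length. By deposited FPKM averaged over the 4 libraries it ran Lrrk2 (56.8), Rab12 (45.7), Rab10 (31.9), Rab8a (15.6), Rab29 (0.599) and Lrrk1 (0.0740). With the longest coding transcript as the length, chosen after the values were seen, it ran Rab12 (41.7 FPKM), Rab10 (31.8), Lrrk2 (16.6), Rab8a (7.95), Rab29 (0.596) and Lrrk1 (0.0257). On this second scale Lrrk2 ranged from 12.4 to 20.3 FPKM over the 4 libraries and did not overlap Rab10 (30.8 to 34.2 FPKM) or Rab8a (7.58 to 8.77 FPKM). On the deposited scale Lrrk2 (44.1 to 70.1 FPKM) overlapped Rab12 (44.3 to 47.7 FPKM). Both scales place Rab29 and Lrrk1 below 1 FPKM in every library.

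Lrrk1 (ENSMUSG00000015133, chr7:66226912-66388350, minus strand), a related Roco kinase that is known to act on Rab7, had 10 counts or fewer in each library. It had 10 counts in each D2 library, BACHD and WT (exact Poisson 95% interval 4.795 to 18.4). In D1 cells it had 6 counts in BACHD (interval 2.20 to 13.1) and 7 in WT (interval 2.81 to 14.4). The 4 intervals overlap. The BACHD-to-WT log2 ratio had counting intervals of -1.40 to 1.44 in D2 and -2.05 to 1.59 in D1 cells, so a change of Lrrk1 up to 2-fold was not detectable at this depth.

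Rab8a (ENSMUSG00000003037, chr8:72161200-72183904, plus strand), which acts in transport to the plasma membrane and the primary cilium, stood at 36.5 CPM (BACHD) and 35.7 CPM (WT) in D2 cells and at 39.1 CPM (BACHD) and 33.7 CPM (WT) in D1 cells. The D1 pair was the more separate (log2 ratio 0.22, counting interval 0.11 to 0.32), and in D2 cells the ratio was 0.03 (interval -0.07 to 0.13). Rab10 (ENSMUSG00000020671, chr12:3247428-3309969, minus strand), a GTPase of endosomal recycling and exocytosis that serves as the usual readout of Lrrk2 kinase activity, stood at 111 CPM (BACHD) and 112 CPM (WT) in D2 cells and at 108 CPM (BACHD) and 117 CPM (WT) in D1 cells. Its log2 ratio was -0.01 in D2 (interval -0.07 to 0.05) and -0.12 in D1 cells (interval -0.18 to -0.06). Rab12 (ENSMUSG00000023460, chr17:66494512-66519729, minus strand), a GTPase of endosome-to-lysosome transport, stood at 88.3 CPM (BACHD) and 86.0 CPM (WT) in D2 cells and at 83.7 CPM (BACHD) and 87.4 CPM (WT) in D1 cells. Its counting intervals included 0 in D2 (-0.03 to 0.10) and in D1 cells (-0.13 to 0.004). The BACHD level of these 3 substrates was 99.2% to 103% of WT in D2 cells and 91.8% to 116% in D1 cells, where that of Lrrk2 was 61.0% and 67.8%.

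Rab29 (ENSMUSG00000026433, chr1:131867224-131872887, plus strand), which is both a substrate and, when overexpressed, a recruiter of Lrrk2 to Golgi membranes, was scarce. It had 28 counts in BACHD and 33 in WT libraries of D2 cells, and 40 in BACHD and 24 in WT libraries of D1 cells, or 0.562 to 0.949 CPM. The log2 ratio was -0.22 in D2 (interval -0.998 to 0.553) and 0.76 in D1 cells (interval -0.01 to 1.55), and both intervals included 0. By mean deposited FPKM over 59 Rab genes, Rab12 ranked 15, Rab10 ranked 21, Rab8a ranked 31 and Rab29 ranked 50, with a family median of 16.4 FPKM.

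The rule that chose the genes did not use the difference between D2 and D1 cells, though earlier results of these data were known. That difference was tested with edgeR's quasi-likelihood test on all 4 libraries, with a term for genotype. Of the 4 genes tested, 0 were called (adjusted p under 0.05), 0 had an unadjusted p under 0.05, and DESeq2 and limma-trend called 0. Over all 13400 genes, 17.0% were called, 6.81% as higher and 10.2% as lower in D2 cells. Lrrk2 had a D2 minus D1 log2 difference of -0.01 ± 0.05 (SE, n = 2 pools each), with a 95% interval of -0.13 to 0.12 (edgeR adjusted p = 0.961). Rab12 was at 0.03 ± 0.05 (interval -0.09 to 0.15, edgeR adjusted p = 0.794). Rab10 was at -0.02 ± 0.05 (interval -0.14 to 0.10, edgeR adjusted p = 0.881), and Rab8a at -0.01 ± 0.07 (interval -0.18 to 0.15, edgeR adjusted p = 0.946). The intervals of the 4 genes lie within 0.18 of 0 on the log2 scale. In fits that left out 1 library and had no genotype term, the Lrrk2 difference was 0.32 without D2 BACHD and -0.39 without D2 WT. It was -0.24 without D1 BACHD and 0.31 without D1 WT. With 1 library left in a cell type, these fits cannot show whether the absence of a call holds. The SEs rest on 1 residual degree of freedom and on variance shared across genes, since no group had a replicate pool.

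**Figure D4:**
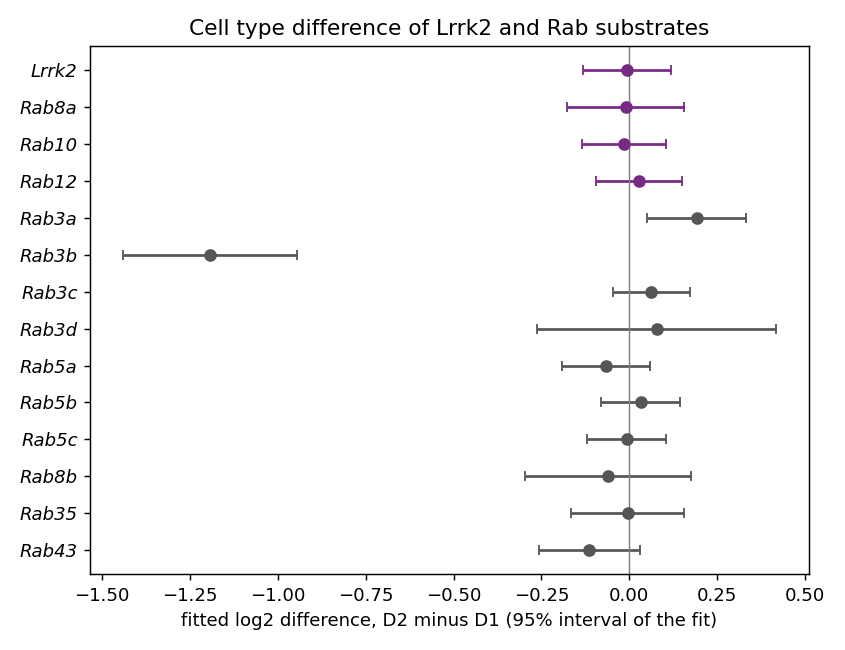
Fitted log2 difference between D2 and D1 cells (2 pools each) with its 95% interval, for the 4 genes of the set that were tested (purple) and 10 other Rab substrates of Lrrk2 (grey). The purple points lie within 0.03 of 0, and Rab3b, at -1.19, stands apart to the left.

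Beyond the set, 10 other Rab genes are listed as Lrrk2 substrates (Rab3a, Rab3b, Rab3c, Rab3d, Rab5a, Rab5b, Rab5c, Rab8b, Rab35 and Rab43), and all 10 were tested. Rab3b, a Rab3 GTPase of regulated secretion, was the 1 called, against 17.0% of all tested genes, and it was lower in D2 cells. It stood at 32.5 CPM in D2 BACHD and 27.4 CPM in D2 WT, against 62.6 CPM in D1 BACHD and 74.3 CPM in D1 WT. The groups did not overlap, and the D2 minus D1 log2 difference was -1.19 ± 0.11 (SE, edgeR adjusted p = 0.00021). The other 9 ranged from -0.11 to 0.19, with Rab3a, the main synaptic vesicle Rab3, at 0.19 ± 0.06 (adjusted p = 0.0707) and Rab5c, of early endosomes, at -0.01 ± 0.05 (adjusted p = 0.946). The median of the 10 was -0.0059, against -0.0012 over all tested genes. By genotype, 0 of the 10 were called, against 0.44% of all tested genes, and their BACHD minus WT log2 differences ranged from -0.11 (Rab3a) to 0.08 (Rab3d). The genotype median of the 10 was -0.01, against 0.0074 over all tested genes.

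Over the whole pathway, 114 genes outside the set were listed (the other substrates, Rab29 relatives, other Roco proteins, readers and phosphatases of phosphorylated Rabs, genes of the Rab cycle, Lrrk2 partners, Parkinson's disease genes and all further Rab genes), and 99 were tested. By genotype edgeR called 0 of the 99, against 0.44% of all tested genes, and DESeq2 and limma-trend called 0. An unadjusted edgeR p under 0.05 was seen for 16. The share of all tested genes was computed neither for that level nor for the bounds that follow. The 16 and the counts within those bounds are therefore listed as values only. The BACHD minus WT log2 difference lay within 0.1 of 0 for 68 of the 99 and within 0.2 for 92. Its median was -0.02 over the 99, against 0.0074 over all tested genes, with list medians of -0.05 for the Lrrk2 partners, -0.04 for the Parkinson's disease genes and 0.0043 for the Rab genes outside the set. The gene nearest a call was Vps13c, which encodes a lipid transfer protein mutated in an early-onset Parkinson's disease. It stood at 20.3 CPM (BACHD) and 27.5 CPM (WT) in D2 cells and at 28.9 CPM (BACHD) and 38.9 CPM (WT) in D1 cells. Its log2 difference was -0.43 ± 0.07 (SE, edgeR adjusted p = 0.0523), and it passed under 2 of 11 alternatives, total-count scaling (edgeR adjusted p = 0.0218) and a filter of 10 CPM (edgeR adjusted p = 0.0487), with adjusted p of 0.0218 to 1.0 over the 11. Of these alternatives, the fits that left out a library had no cell type term. Their Vps13c log2 differences ran from -0.71 without D1 BACHD to -0.16 without D1 WT. The deposited FPKM of Vps13c lay closer together, at 5.19 (BACHD) and 6.85 (WT) in D2 cells and at 5.62 (BACHD) and 6.03 (WT) in D1 cells. The fitted log2 difference on FPKM plus 0.1 was -0.25 (limma-trend adjusted p = 0.413). By cell type edgeR called 15 of the 99, or 15.2%, near the 17.0% of all tested genes, with 3 higher and 12 lower in D2 cells and a median log2 difference of -0.02, against -0.0012 over all tested genes. With total-count scaling 21 were called, 2 of them higher. The part in these calls of the cortical and interneuron RNA, which was higher in the D1 libraries, was not tested. With cell type as the only term 7 were called, among them Rab3b, Ywhah, Myo5a, Rab36, Dapk1 and Tbc1d4, named after their values were seen. That fit, to which the statements on calls lost without a library refer, gave 5 without D2 BACHD, 3 without D2 WT, 8 without D1 BACHD and 9 without D1 WT.

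**Figure D5:**
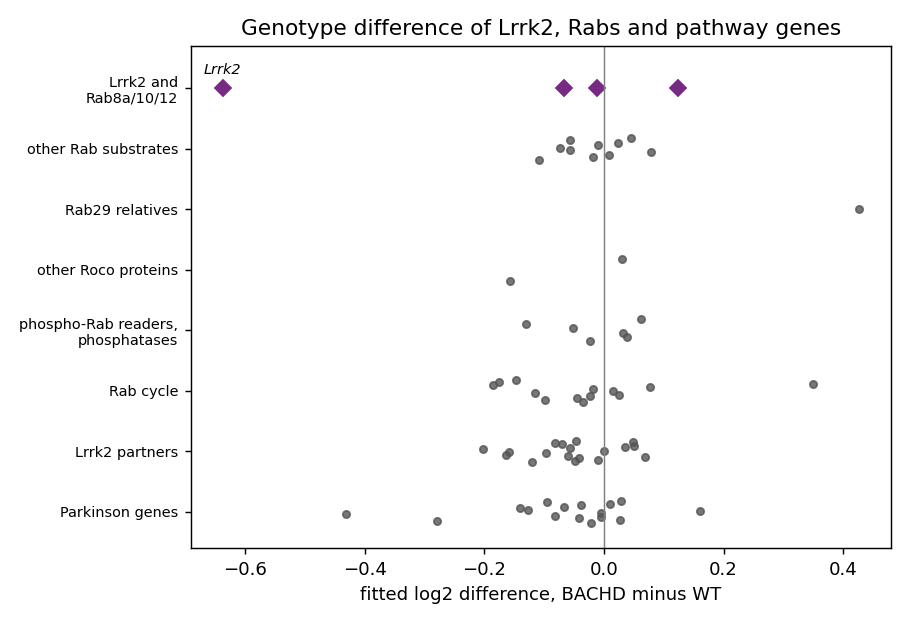
Fitted log2 difference between BACHD and WT (2 pools each) for the 4 genes of the set that were tested (diamonds) and for tested genes of 7 pathway lists (points, spread vertically for visibility). The Lrrk2 diamond, whose place chose the set, lies at -0.64, and the points lie between -0.43 (Vps13c) and 0.43 (Rab32).

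Of the relatives of Rab29, Rab32, which binds the Lrrk2 N terminus, was lower in D2 cells, at 2.38 and 1.64 CPM in D2 BACHD and D2 WT, against 3.87 and 3.07 CPM in D1 BACHD and D1 WT. Its D2 minus D1 log2 difference of -0.80 ± 0.19 (edgeR adjusted p = 0.0227) was lost with cell type as the only term, both with all 4 libraries and without any one of them, by DESeq2 and without the expression filter, and was called under 3 of 10 alternatives. Rab38 had between 0 and 3 counts in each library and was not tested. Of the other Roco proteins, Dapk1, a death-associated protein kinase, was lower in D2 cells, at 134 and 143 CPM in D2 BACHD and D2 WT, against 169 and 197 CPM in D1 BACHD and D1 WT. Its difference was -0.40 ± 0.05 (adjusted p = 0.00148), and the call was lost without either D2 library and without the expression filter. Mfhas1 was at 0.08 ± 0.06 (adjusted p = 0.451).

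Among 8 readers and phosphatases of phosphorylated Rabs, 6 were tested and 1 was called, against 17.0% of all tested genes. Myo5a, a myosin motor that binds phosphorylated Rab10, was higher in D2 cells, at 386 and 440 CPM in D2 BACHD and D2 WT, against 294 and 309 CPM in D1 BACHD and D1 WT. Its difference was 0.45 ± 0.05 (edgeR adjusted p = 0.000885), and the call was lost without D2 WT. The scaffold genes Mapk8ip3 (120 FPKM on average) and Spag9 (35.7 FPKM), whose products JIP3 and JIP4 bind phosphorylated Rabs, were at -0.05 ± 0.05 and -0.01 ± 0.05, with adjusted p of 0.626 and 0.887. Among 16 genes of the Rab cycle, 13 were tested, with 1 higher and 1 lower (6.81% and 10.2% of all tested genes). Tbc1d4, a GTPase-activating protein for Rab8a and Rab10, was lower in D2 cells, at 35.7 and 39.2 CPM in D2 BACHD and D2 WT, against 47.7 and 55.3 CPM in D1 BACHD and D1 WT. Its difference was -0.46 ± 0.06 (adjusted p = 0.00159), lost without D2 BACHD. Rabif, a chaperone of nucleotide-free Rabs, was at 0.36 ± 0.08 (adjusted p = 0.0212), and was called under 4 of 11 alternatives, with losses on FPKM, without the expression filter, with cell type as the only term and without D2 WT, D1 BACHD or D1 WT. Gdi2, whose product takes Rabs off membranes, was at -0.07 ± 0.05 (adjusted p = 0.359).

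All 18 Lrrk2 partners were tested and 2 were called, both lower in D2 cells, against 10.2% of all tested genes called lower. Ywhah, the eta form of the 14-3-3 proteins that bind phosphorylated Lrrk2, stood at 258 and 265 CPM in D2 BACHD and D2 WT, against 390.3 and 402 CPM in D1 BACHD and D1 WT. Its difference was -0.60 ± 0.05 (edgeR adjusted p = 0.00013). Arhgef7, an exchange factor reported to interact with Lrrk2, was at -0.18 ± 0.05 (adjusted p = 0.0461), and was called under 4 of 11 alternatives. Ywhaz, the zeta form, averaged 329 FPKM and was at 0.05 ± 0.06 (adjusted p = 0.631), and the chaperone gene Hsp90ab1 averaged 526 FPKM and was at 0.04 ± 0.06 (adjusted p = 0.696). Of the 14 genes called by cell type that the naming rule picked over all lists, Rab3b and Ywhah were the ones called under all 11 alternatives.

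All 16 Parkinson's disease genes were tested, and 4 were called lower in D2 cells, against 10.2% of all tested genes. The list as a whole was not tested. Vps13c was at -0.50 ± 0.07 (edgeR adjusted p = 0.00161), but its sign turned on FPKM values (0.03 on log2 FPKM plus 1, not called by limma-trend), for which the implied length was 3823 and 3911 bases in D2 BACHD and D2 WT, against 5246 and 6602 bases in D1 BACHD and D1 WT. It was called under 5 of 11 alternatives. Dnajc6, which encodes the clathrin-uncoating factor auxilin, was at -0.21 ± 0.05 and Uchl1, a ubiquitin hydrolase gene, at -0.19 ± 0.05 (adjusted p = 0.0285 and 0.0369), and they were called under 4 (Dnajc6) and 5 (Uchl1) of 11 alternatives. Of 55 Rab genes outside the set, 45 were tested, with 1 higher and 4 lower (6.81% and 10.2% of all tested genes). These were Rab22a (0.20 ± 0.06, adjusted p = 0.0495, named after its value was seen), Rab3b, Rab36 (-0.42 ± 0.05, adjusted p = 0.00118, lost without D2 WT), Rab32 and Rab6a of the Golgi (-0.18 ± 0.05, adjusted p = 0.0346, called under 4 of 11 alternatives). Rab2a of the endoplasmic reticulum and Golgi, the most abundant Rab gene after Rab3a among those outside the set (149 FPKM on average), was at -0.06 ± 0.05 (adjusted p = 0.505).

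By distance between log2 CPM profiles over the 4 libraries, each centred on its own mean, 4 of the 5 genes most like Lrrk2 among 9476 genes averaging 10 CPM or more were Cdr1 (distance 0.134), Sv2c (0.144), Mdm4 (0.199) and Fstl4 (0.216). Cdr1, the nearest, stood at 29.0 CPM (BACHD) and 44.9 CPM (WT) in D2 cells and at 32.6 CPM (BACHD) and 47.8 CPM (WT) in D1 cells. Cdr1 has an antisense partner, and without strand information their reads cannot be told apart. Sv2c, a synaptic vesicle glycoprotein gene, stood at 8.87 CPM (BACHD) and 13.0 CPM (WT) in D2 cells and at 9.54 CPM (BACHD) and 13.8 CPM (WT) in D1 cells. The BACHD-to-WT log2 ratios of the 4 genes lay between -0.63 and -0.42 in D2 and between -0.58 and -0.50 in D1 cells. The genes were picked by likeness over these same libraries, so ratios near those of Lrrk2 follow from the picking rule. With 4 libraries this likeness is a description.

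The tested genes on either side of Lrrk2 on chromosome 15 were Abcd2 and Slc2a13 to the left and Cntn1 and Pdzrn4 to the right (GENCODE M21). Slc2a13, a myo-inositol transporter gene on the minus strand, has its nearer edge 99.9 kb from Lrrk2. It stood at 133 CPM (BACHD) and 170 CPM (WT) in D2 cells and at 144 CPM (BACHD) and 156 CPM (WT) in D1 cells. Its BACHD minus WT log2 difference was -0.23 ± 0.06 (edgeR adjusted p = 0.199). Cntn1, a contactin gene 235 kb away, was at 0.04 ± 0.05 (adjusted p = 0.759), Abcd2 at -0.14 ± 0.07 (adjusted p = 0.433) and Pdzrn4 at 0.52 ± 0.18 (adjusted p = 0.262). None of the 4 was called by genotype, where 0.44% of all tested genes were.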

How the data were processed

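RNA-seq values of 4 pooled libraries were used. The authors deposited estimated counts per gene (19.4% of entries not whole) and FPKM. CASAVA 1.8.2 is named per the submitters' processing notes, and no source used here gives the aligner, counter, annotation, strand use or build. GENCODE M21 (GRCm38) supplied coordinates and sequences and need not be the annotation the authors used. Counts were rounded, and 13400 genes with at least 1 CPM in 2 libraries were fitted with edgeR 4.0.16 (R 4.3.3, TMM scaling, quasi-likelihood test, terms for cell type and genotype, Benjamini-Hochberg adjustment over all genes). The SE is the absolute log2 change divided by the square root of F. Ratios within a cell type have exact conditional binomial intervals for counting error, with counts under 3 set to 3. Symbols matched 32897 identifiers. The steps were tested on simulated data. Alternatives were total-count scaling, DESeq2 1.42.0, limma 3.58.1 (limma-trend on FPKM plus 0.1 or 1), other filters, only the term tested, a ratio of 1.5 and leaving out each library. Named genes were the set, up to 4 called and the 2 with the highest FPKM per pathway list and term, the 5 genes most like Lrrk2, and its neighbours. The set, lists and rules were chosen with earlier results of these data known. Of 7 markers of D2 cells and 7 of D1 cells, listed as checks of the sort, 6 and 7 were matched, and they summed to 12390 and 13130 CPM (D2 markers) and 118 and 149 CPM (D1 markers) in D2 BACHD and D2 WT, against 162 and 176 CPM and 2851 and 2975 CPM in D1 BACHD and D1 WT. Results of some genes that these rules pick are not reported here.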

Additional observations from a re-analysis of the deposited data

Results flagged for a closer look

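In 7 of the pathway genes reported here, all outside the set, the BACHD-to-WT ratio pointed up in one cell type and down in the other, and neither counting interval included a ratio of 1. With 1 library per group the difference between cell types was not tested, and none of the 6 genes of the set met this condition. The share of all tested genes that meet it was not computed, so the 7 are listed as values only. The intervals cover counting error only and are narrow for genes with many counts. Higher in BACHD than in WT libraries of D2 cells, and lower in those of D1 cells, were Rab3b (log2 ratio 0.24 in D2 and -0.25 in D1 cells), Rab30 (0.27 and -0.23) and Rab2a (0.035 and -0.0907). The opposite order held for Rab8b, a close paralog of Rab8a (-0.16 in D2 and 0.20 in D1 cells), Rab15 (-0.117 and 0.0828), Ywhag (-0.0876 and 0.0677) and Stub1 (-0.0601 and 0.0608).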

How the results depend on the processing

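No paired analysis was possible because each group had 1 library, so no replicate number could pair samples. The reported fit compares cell types within genotype through its genotype term. The count of 0 set genes called between D2 and D1 cells was the same under the alternatives that kept all 4 libraries. Those that left out 1 library had no genotype term and kept 1 library in a cell type, so they cannot show whether that count holds. Of pathway genes, 15 were called by cell type (3 higher), against 21 with total-count scaling (2 higher), 13 with a filter of 10 CPM, 12 on either FPKM scale, 6 without the expression filter, 7 with cell type as the only term, 9 with DESeq2 and 3 to 9 when 1 library was left out. By genotype 0 pathway genes were called, against 1 with total-count scaling and 1 with a filter of 10 CPM (Vps13c in both). Genotype fits that left out 1 library had no cell type term and kept 1 library in a genotype. They cannot show whether that count holds. With a ratio of 1.5, 1 set gene passed in D2 cells. The Lrrk2 log2 ratio of -0.71 in D2 cells was -0.66 on FPKM plus 1, and that of -0.56 in D1 cells was -0.503 on FPKM plus 0.1 and -0.495 on FPKM plus 1. Of 48 alternative ratios of the 6 genes, 45 lay within the counting interval of the reported one. The 3 that lay outside were these Lrrk2 ratios on FPKM. The intervals of the scarce Lrrk1 and Rab29 are wide. Vps13c turned from lower to higher in D2 cells on FPKM plus 0.1 (0.035) and plus 1 (0.032). A mean Lrrk2 level of 56.8 FPKM became 16.6 with the coding transcript's length. Without replicate pools the spread between pools is not measured. Lrrk1 and Rab29 are limited by counts under 41.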
